A study of Mus musculus with 7 samples.

Results

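Mirtrons and other miRNAs that are made without DGCR8 were followed in small RNA libraries of mouse hepatocytes. The hairpins, 6 in number, were chosen by name for how they are made: mmu-miR-320, mmu-miR-484, mmu-miR-877, mmu-miR-1224, mmu-miR-702 and mmu-miR-3102, written without mmu from here on. Every counted mature miRNA whose name, without its arm ending, equals one of these 6 was taken, which gave 11 of the 1966 mature miRNAs counted. The libraries came from 2 genotypes, ALAS12-KO (n = 4) and WT (n = 3), and all 7 share the treatment TMX, an abbreviation left unexplained in the labels. Per its design text, the series concerns ALAS1/2 mutant hepatocytes and the effect on small RNAs. ALAS1 and ALAS2 are aminolevulinate synthases, which open the pathway that makes heme. The labels name neither the way the mutation was made nor the animals behind each library, so p-values measure the spread between these libraries, which may be partly technical.

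Most animal miRNAs are cut from a long primary transcript by the Microprocessor, a complex of the nuclease Drosha and its RNA-binding partner DGCR8, which binds heme. Dicer then cuts the hairpin and Argonaute takes up 1 strand as the guide. A mirtron skips the first cut: the spliceosome excises a short intron, the lariat is debranched, and the intron itself folds into the hairpin that Dicer receives. miR-320 and miR-484 skip it in another way, since their hairpins arise as short transcripts with a capped 5′ end that leave the nucleus and go straight to Dicer. In mouse embryonic stem cells, miRNAs of these kinds persist when DGCR8 is removed.

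The sequences show how the mirtrons are set into their genes. They are RefSeq sequences on GRCm38.p6, and intron borders are those of GENCODE M21 on the same build (mm10). The first 3 hairpins below are shown because each fills an intron, or nearly so, and the capitals mark the first and last 2 bases of the intron (for Mir702, its first 2 bases).
Mir877: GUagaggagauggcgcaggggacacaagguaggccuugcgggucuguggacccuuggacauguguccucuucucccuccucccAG
Mir1224: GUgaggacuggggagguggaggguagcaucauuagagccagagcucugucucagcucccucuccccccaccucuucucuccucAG
Mir702: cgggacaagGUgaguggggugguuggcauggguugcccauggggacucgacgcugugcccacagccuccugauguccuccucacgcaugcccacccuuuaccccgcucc

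Mir877 lies on the minus strand at chr17:35960730-35960814 and is an entire 85-base intron of Abcf1, from its first to its last base. Mir1224 lies on the plus strand at chr16:20604452-20604536 and is likewise an entire 85-base intron of Vwa5b2. Mir3102, on the minus strand at chr7:100882306-100882409, fills a 104-base intron of Arhgef17. It also overlaps an exon of another Arhgef17 transcript. Mir702, on the plus strand at chr5:136991433-136991541, starts 9 bases before a 102-base intron of Plod3 and ends 2 bases short of its end, and it too overlaps Plod3 exons. Both ends matched an intron exactly for 22 of the 2202 miRNA genes of the annotation. Among the hairpins in the RefSeq table, 30 of 1005 (2.99%) start with GU and end with AG, the letters at the ends of most introns.

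**Figure D1:**
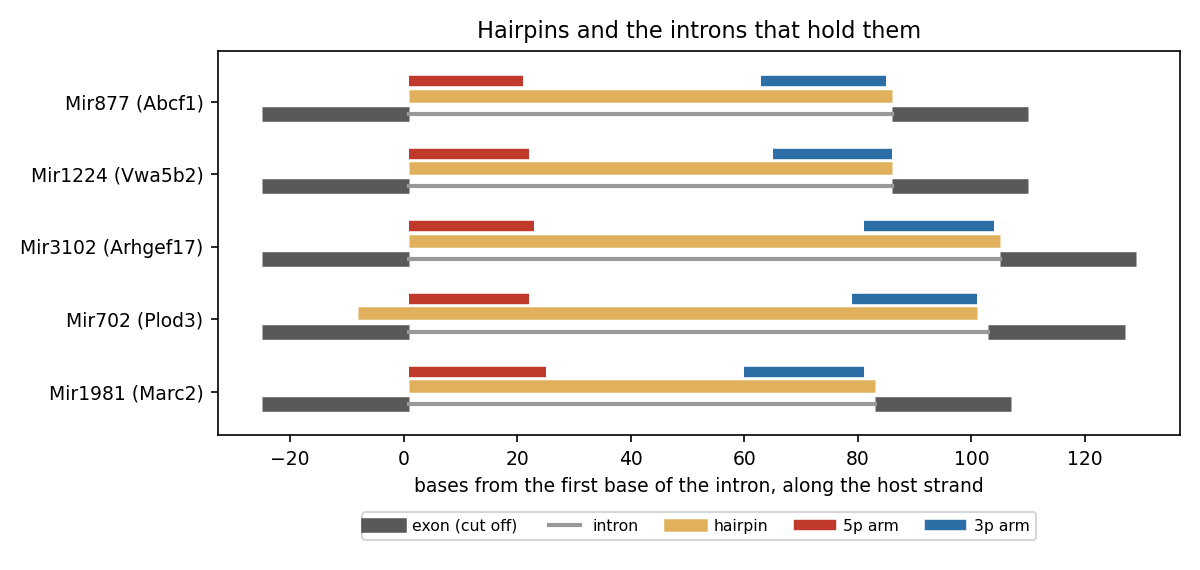
Position of 5 hairpins (yellow) and their annotated 5p (red) and 3p (blue) arms along the introns that hold them, in bases from the first base of the intron, with exons as dark bars cut off at the edges. Each 5p arm starts at base 1 of its intron. Mir1981 of Marc2 is not one of the 6 chosen hairpins and is shown for comparison.

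The annotated 5p arm of miR-877, miR-1224, miR-3102 and miR-702 begins at base 1 of the intron, so its seed, bases 2 to 8 of the mature miRNA, is read from the 5′ splice site. The mature sequences are given with the seed in capitals to show what this does to it.
miR-702-5p: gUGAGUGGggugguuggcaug
miR-3102-5p: gUGAGUGGccaggguggggcug
miR-1224-5p: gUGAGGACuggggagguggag
miR-877-5p: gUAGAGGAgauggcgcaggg
miR-484: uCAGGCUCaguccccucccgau

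miR-702-5p and miR-3102-5p come from different genes and chromosomes and share the seed UGAGUGG, which 2 of the 727 5p sequences in the RefSeq table carry (0.275%). The start GUGAG, shared by these and miR-1224-5p, is found in 14 of the 727 (1.93%) and in 0 of the 395 tested miRNAs with a sequence in the table. No other counted miRNA with a sequence there carries the seed of miR-484, miR-877-5p, miR-877-3p, miR-1224-5p, miR-1224-3p, miR-702-3p or miR-3102-3p. The nearest counted miRNA to any of the 9 members with a sequence differed at 5 to 7 of the first 18 bases.

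The remaining hairpins lie outside introns. Mir484 is on the plus strand at chr16:14159626-14159692, opposite Marf1 and 3649 bases before the nearest annotated start on its own strand, that of Nde1. Its annotated mature miRNA sits on the 5′ side of the hairpin, in capitals here to show its place. No other arm of this hairpin was counted, so the reads of the sides cannot be compared.
Mir484: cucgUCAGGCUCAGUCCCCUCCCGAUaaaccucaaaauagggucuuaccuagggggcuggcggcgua

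Mir320 is on the plus strand at chr14:70443510-70443591, 63 bases from the nearest annotated transcript start, that of Polr3d on the minus strand. It overlaps no annotated exon.

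The libraries held 7719180 to 21962191 miRNA reads, so 1 CPM (a count scaled to 1000000 miRNA reads) stood for 7.72 to 22.0 reads. miR-122-5p, the defining miRNA of hepatocytes, took 57.7% ± 3.58 of miRNA reads in ALAS12-KO (SD, n = 4) and 57.9% ± 1.32 in WT (SD, n = 3). ALAS12-KO replicate 1 stood apart in its markers of other liver cells. Summed endothelial markers had 10959 CPM there, against 25490 to 36485 CPM in the other ALAS12-KO libraries and 35562 to 52472 CPM in WT. Leukocyte markers had 2231 CPM there, against 4845 to 7196 CPM in the other ALAS12-KO libraries and 5708 to 7542 CPM in WT. Markers of bile duct cells ran from 33.2 to 73.3 CPM in ALAS12-KO and from 114 to 205 CPM in WT. None of the 21 markers was at 0 in all libraries, and their part in the results below was not tested. In such bulk samples, fewer cells of a type and less RNA per cell cannot be told apart. The counts hold no Alas1 or Alas2 mRNA, so they give no check of the genotype labels.

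The members were rare in these hepatocytes, and miR-320-3p and miR-484 made up nearly all of them. Together the 11 members took 23.8, 25.5, 55.7 and 44.7 CPM in ALAS12-KO replicates 1 to 4, against 31.9, 28.3 and 26.2 CPM in WT replicates 1 to 3. The means were 37.4 ± 15.5 CPM in ALAS12-KO (SD, n = 4) and 28.8 ± 2.89 CPM in WT (SD, n = 3). The ALAS12-KO libraries thus stood on both sides of the WT libraries, with replicates 3 and 4 above all of them and replicates 1 and 2 below all of them. miR-320-3p and miR-484 gave 93.8% to 98.2% of the members' reads in each ALAS12-KO library and 96.3% to 97.1% in each WT library. Without miR-122-5p in the total, the sum was 86.6 ± 28.9 CPM in ALAS12-KO and 68.3 ± 6.83 CPM in WT (SD). No test was made of this sum, because its members were chosen with earlier results of these data known.

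**Figure D2:**
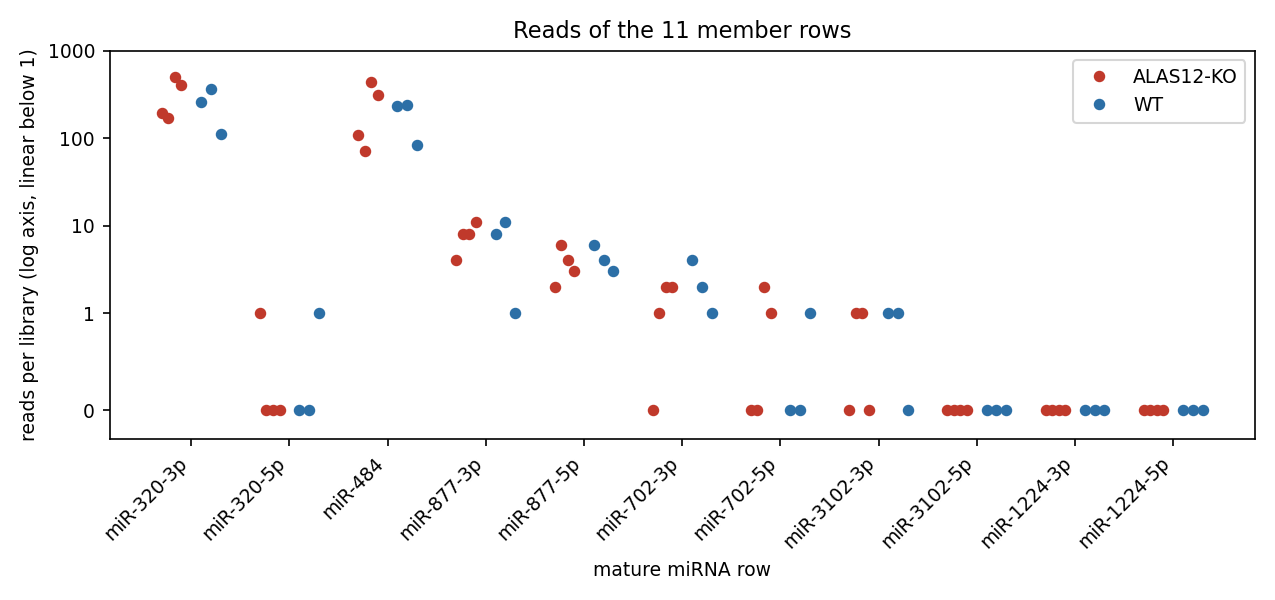
Reads per library for each of the 11 members in ALAS12-KO (red, left) and WT (blue, right), on a log axis that is linear below 1. miR-320-3p and miR-484 have 72 to 495 reads in each library, the arms of miR-877 have 1 to 11, and both arms of miR-1224 and miR-3102-5p are at 0 throughout.

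mmu-miR-320-3p is an abundant miRNA of many tissues and has been studied for its targets in glucose and lipid handling. It had 196, 169, 495 and 404 reads in ALAS12-KO replicates 1 to 4, against 260, 361 and 111 reads in WT replicates 1 to 3. As a share of all miRNA reads this was 14.9, 16.7, 29.0 and 24.7 CPM in ALAS12-KO, against 16.2, 16.4 and 14.4 CPM in WT. On this scale ALAS12-KO replicates 3 and 4 lay above every WT library, replicate 2 lay just above them and replicate 1 lay among them. The exact 95% interval for ALAS12-KO replicate 3, 26.5 to 31.6 CPM, did not reach that of any WT library, the highest of which ended at 18.3 CPM. The reads carry no molecular identifiers, so these intervals cover counting error alone.

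With TMM scaling, which sets the libraries to a common level of their typical miRNA, the levels of miR-320-3p were 18.5, 19.0, 26.2 and 24.0 CPM in ALAS12-KO and 15.0, 16.2 and 12.8 CPM in WT. All 4 ALAS12-KO libraries were then above all 3 WT libraries, at means of 21.9 ± 3.77 CPM and 14.6 ± 1.74 CPM (SD). Groups that did not overlap were common in these data: 91 of the 450 tested miRNAs (20.2%) showed it on the same scale. The log2 fold change of miR-320-3p was 0.58 ± 0.20 (SE), and it did not pass the threshold (edgeR adjusted p = 0.220). Over all tested miRNAs, 0 of 450 (0%) passed, with 84 (18.7%) at an unadjusted p under 0.05, of which 46 (10.2%) were higher in ALAS12-KO. miR-320-3p was 1 of these (edgeR unadjusted p = 0.0197, the 38th lowest). DESeq2 called 21 of the 450, limma-voom 0, and miR-320-3p passed in neither.

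mmu-miR-484 has been studied as a regulator of the mitochondrial fission protein Fis1. It had 110, 72, 440 and 311 reads in ALAS12-KO replicates 1 to 4, against 232, 242 and 84 reads in WT replicates 1 to 3. Its share of miRNA reads was 8.35, 7.13, 25.7 and 19.0 CPM in ALAS12-KO, against 14.5, 11.02 and 10.9 CPM in WT. ALAS12-KO replicates 1 and 2 were below every WT library and replicates 3 and 4 were above every one, and the spread inside ALAS12-KO was wider than the difference between the genotypes. With TMM scaling the means were 15.1 ± 7.06 CPM in ALAS12-KO (SD, n = 4) and 11.3 ± 1.89 CPM in WT (SD, n = 3). The log2 fold change was 0.42 ± 0.36 (SE), and it did not pass (edgeR adjusted p = 0.528). Without ALAS12-KO replicate 3 it was 0.07 ± 0.32 (edgeR adjusted p = 0.903).

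**Figure D3:**
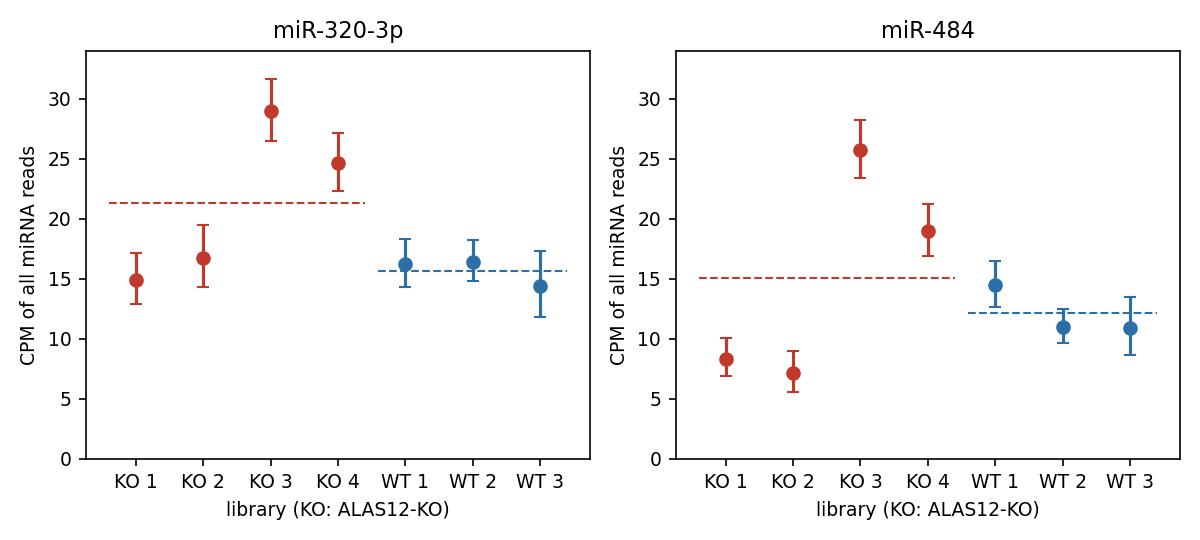
CPM of all miRNA reads for miR-320-3p (left) and miR-484 (right) in each library, with exact 95% intervals for counting error and the group means as dashed lines (ALAS12-KO red, WT blue). ALAS12-KO replicates 3 and 4 are above all WT libraries for both, and ALAS12-KO replicates 1 and 2 are below all WT libraries for miR-484.

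Both members that could be tested were thus higher on average in ALAS12-KO, and neither difference passed. Of all 450 tested miRNAs, 252 (56%) were higher on average in ALAS12-KO. The median log2 fold change was 0.06 and the quartiles were −0.35 and 0.33. A change of scaling shifts the fold changes of all miRNAs nearly alike. The distance of the members from the median is thus nearly fixed by the way it is measured, and its steadiness is no test of the scaling. Against the median of all tested miRNAs, miR-320-3p stood 0.52 higher on the log2 scale with TMM and 0.56 higher with library totals, where the median itself shifted to −0.12. For miR-484 these values were 0.36 and 0.43. By library totals the log2 fold change of miR-320-3p was 0.44 ± 0.26 (edgeR adjusted p = 0.432) and that of miR-484 was 0.32 ± 0.46 (edgeR adjusted p = 0.742).

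**Figure D4:**
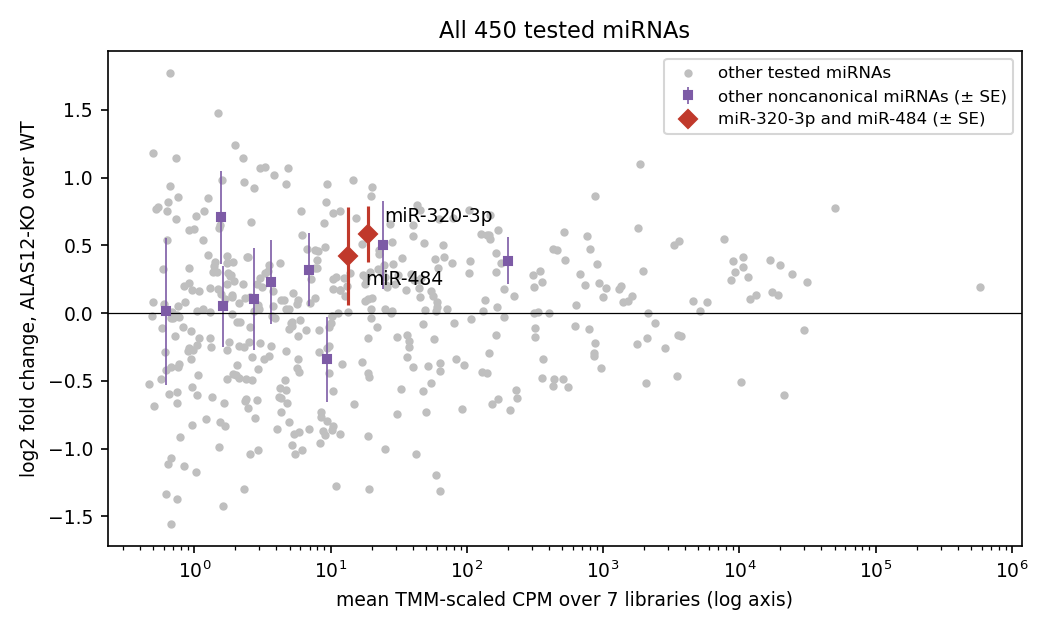
Log2 fold change of ALAS12-KO over WT against the mean TMM-scaled CPM for the 450 tested miRNAs (grey), with miR-320-3p and miR-484 (red) and 9 other noncanonical miRNAs (purple), each with its SE. The red points, at 0.58 and 0.42, lie inside the cloud of other miRNAs of like abundance.

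The 2 members did not move as 1. miR-484 had 56.1, 42.6, 88.9 and 77.0 reads per 100 reads of miR-320-3p in ALAS12-KO replicates 1 to 4, against 89.2, 67.0 and 75.7 in WT. ALAS12-KO replicates 1 and 2 had the lowest ratios of all 7 libraries. The SD of the log2 level within ALAS12-KO was 0.24 for miR-320-3p and 0.68 for miR-484, where the median over all tested miRNAs was 0.36 and 54 of 450 had a larger SD than miR-484. Within WT the SDs were 0.17 and 0.23, near the median of 0.20. ALAS12-KO replicates 3 and 4 were the highest pair of libraries for both members, as they were for 57 of 450 tested miRNAs (12.7%).

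The miRNAs whose levels ran most like each member were found by the SD, over the 7 libraries, of the log2 ratio to it. For miR-320-3p these were miR-1843a-5p at an SD of 0.11, miR-22-3p and miR-122-3p at 0.12, and miR-29a-5p and miR-1839-5p at 0.14, where the median over all tested miRNAs was 0.48. miR-484 stood at 0.37, below that median, and came 98th. For miR-484 the nearest were miR-92a-3p at 0.16, miR-99a-5p at 0.17, miR-362-3p at 0.19, miR-151-3p at 0.21 and miR-106b-3p at 0.22, where the median was 0.64. miR-320-3p came 36th. These are descriptions of 7 libraries that share their group difference.

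The mirtrons among the chosen hairpins were close to the limit of detection in both genotypes. miR-877, miR-1224, miR-702 and miR-3102 together gave 6, 16, 17 and 17 reads in ALAS12-KO replicates 1 to 4, against 19, 18 and 6 reads in WT replicates 1 to 3. Pooled over each genotype this was 56 reads in 56741028, or 0.987 CPM, with an exact 95% interval of 0.746 to 1.28, in ALAS12-KO. In WT it was 43 reads in 45705590, or 0.941 CPM, with an interval of 0.681 to 1.27. The intervals overlapped almost entirely. They cover counting error alone, and no test was made of the sum. None of their mature miRNAs passed the filter on low counts, so no fold change is given for them.

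mmu-miR-877, the mirtron of Abcf1, gave most of these reads. miR-877-3p had 4, 8, 8 and 11 reads in ALAS12-KO, against 8, 11 and 1 in WT. miR-877-5p had 2, 6, 4 and 3 reads in ALAS12-KO, against 6, 4 and 3 in WT. Both arms were seen in all 7 libraries at numbers that overlapped between the genotypes. The 3p arm made up 31 of 46 reads of the hairpin in ALAS12-KO (67.4%, exact 95% interval 52.0% to 80.5%) and 20 of 33 in WT (60.6%, 42.1% to 77.1%).

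The other chosen mirtrons were fainter still. mmu-miR-702-3p had 0, 1, 2 and 2 reads in ALAS12-KO, against 4, 2 and 1 in WT, and miR-702-5p had 3 reads over all ALAS12-KO libraries and 1 over all WT libraries. miR-3102-3p had at most 1 read in any library and 4 in all. miR-3102-5p and both arms of miR-1224 had 0 reads in every library. A count of 0 allows up to 0.176 to 0.297 CPM in an ALAS12-KO library and up to 0.137 to 0.389 CPM in a WT library. miR-1224 and miR-3102-5p were thus not detectable at this depth, while miR-702 and miR-3102-3p were detected at a few reads.

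No chosen hairpin had both arms past the filter, so none has a test of arm use. The balance of arms was fitted with limma over the 130 hairpins with both arms past the filter, of which 0 (0%) passed the threshold, with 6 (4.62%) at an unadjusted p under 0.05. miR-320 was counted almost only as its 3p arm, with 1 read of the 5p arm in 1265 in ALAS12-KO and 1 in 733 in WT. 

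Other miRNAs of unusual origin gave a broader view. The list held miR-1839 and miR-664 (within small nucleolar or Cajal body RNAs), miR-1981 and miR-1982 (mirtrons), miR-1983 (from a tRNA-like transcript), miR-712, the inner pair of miR-3102 products, and miR-451a. miR-451a is listed because Argonaute2 cuts it in place of Dicer. That step comes after the Microprocessor, so miR-451a is not listed as made without DGCR8. miR-712 was not among the counted names. Of the 12 mature miRNAs counted, 9 passed the filter, from 6 hairpins. Of these 9 miRNAs, 8 had a positive log2 fold change, miR-451a being the exception. The median of the 9 was 0.23 and 0 passed, beside 56% positive and a median of 0.06 over all tested miRNAs. With library totals 5 of the 9 stayed positive, on a scale where the median over all tested miRNAs was itself −0.12. The 56% above belongs to TMM scaling.

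miR-1839-5p was the most abundant of them. Its hairpin overlaps an annotated small Cajal body RNA. It had 224 ± 32.9 CPM in ALAS12-KO (SD, n = 4) and 171 ± 13.8 CPM in WT (SD, n = 3) with TMM scaling. The groups barely missed overlapping on that scale, with 183 CPM in ALAS12-KO replicate 2 and 182 CPM in WT replicate 1. Groups did not overlap for 91 of the 450 tested miRNAs (20.2%). As a share of all miRNA reads it had 171, 161, 276 and 259 CPM in ALAS12-KO replicates 1 to 4, against 198, 179 and 176 CPM in WT replicates 1 to 3. On this second scale ALAS12-KO replicates 1 and 2 were below every WT library and replicates 3 and 4 above every one. Its log2 fold change was 0.39 ± 0.17 with TMM (edgeR adjusted p = 0.264) and 0.24 with library totals. For miR-1839-3p it was 0.71 ± 0.34 (edgeR adjusted p = 0.283), and 0.43 without WT replicate 1. miR-664-3p, whose hairpin lies within Snora36b, had 0.50 ± 0.33, and miR-664-5p had 0.10 ± 0.38. The value of miR-664-3p was 0.24 without ALAS12-KO replicate 2, 0.28 without WT replicate 2 and 0.80 without WT replicate 3, and with library totals it was 0.31. miR-451a, a miRNA of red cells that Argonaute2 matures, had −0.34 ± 0.31. It had −0.18 without ALAS12-KO replicate 1, −0.58 without ALAS12-KO replicate 4 and −0.077 without WT replicate 2. The red cell markers, of which it is 1, ran from 7.21 to 17.7 CPM in ALAS12-KO and from 17.0 to 22.8 CPM in WT, and their part in its level was not tested.

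miR-1981 and miR-1982 were the listed mirtrons with counts past the filter, and miR-1981 had the more reads. The miR-1981 hairpin fills an 82-base intron of Marc2, a mitochondrial enzyme expressed in liver, and it is printed here because it has the same make-up as the mirtrons above, with the first and last 2 bases of the intron in capitals.
Mir1981: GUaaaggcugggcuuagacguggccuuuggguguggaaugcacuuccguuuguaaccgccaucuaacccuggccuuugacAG

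It lies on the minus strand at chr1:184822407-184822488. miR-1981-5p had 93, 87, 120 and 89 reads in ALAS12-KO and 92, 134 and 59 reads in WT, which was 7.03 ± 1.30 CPM and 6.50 ± 1.01 CPM of all miRNA reads (SD). Its log2 fold change was 0.32 ± 0.27 and that of miR-1981-3p was 0.23 ± 0.31 (edgeR adjusted p = 0.513 and 0.702). These sizes hung on single libraries and on the scaling. For miR-1981-5p the value was 0.21 without ALAS12-KO replicate 1, 0.14 without ALAS12-KO replicate 2 and 0.12 with library totals. For miR-1981-3p it was 0.013 without ALAS12-KO replicate 1, 0.44 without WT replicate 2, 0.0087 without WT replicate 3 and 0.058 with library totals. miR-1982-3p, of an Oaz1 intron, had 0.01 ± 0.54 at 2 to 17 reads per library, and miR-1983 had 0.05 ± 0.30. The signs of miR-1982-3p, miR-1983 and miR-664-5p changed with the scaling and with the library left out.

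**Figure D5:**
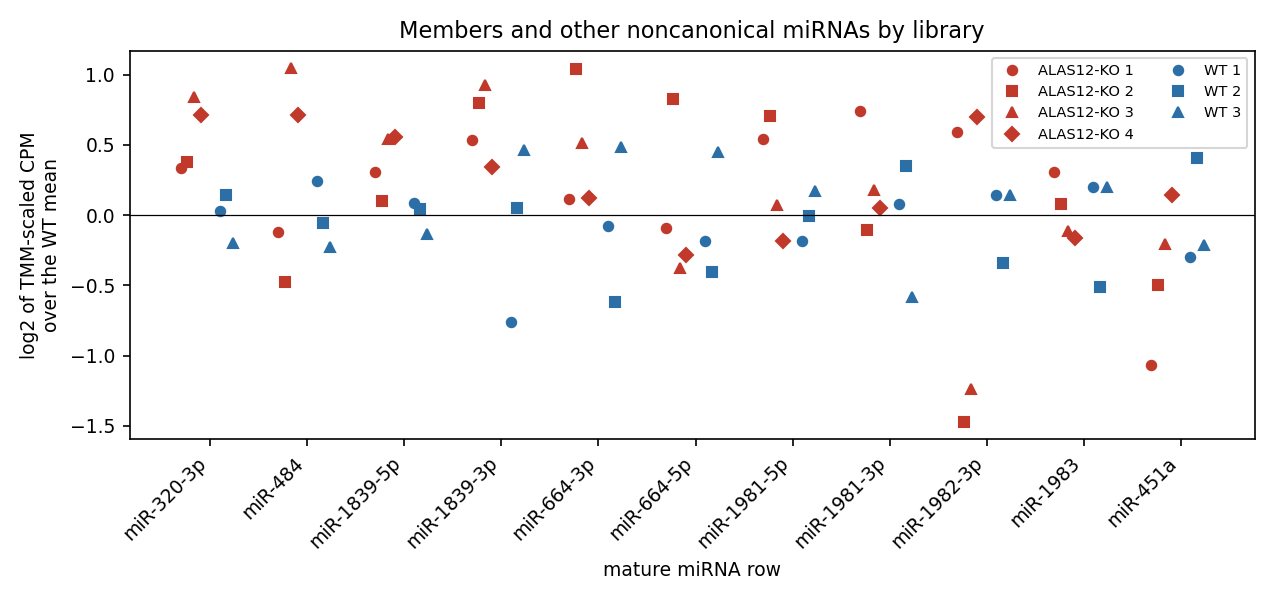
Log2 of the TMM-scaled CPM over the WT mean for miR-320-3p, miR-484 and the 9 other tested noncanonical miRNAs, with 1 point per library (ALAS12-KO red, left; WT blue, right). All 4 ALAS12-KO points lie above all WT points for miR-320-3p and, narrowly, miR-1839-5p on this scale, and the groups overlap for the other 9. Of all tested miRNAs, 20.2% had groups that did not overlap on this scale. By share of all miRNA reads the groups overlap for both.

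miR-1306 bears on DGCR8 itself, since its hairpin lies in an exon of Dgcr8 in the annotation, on the minus strand at chr16:18284239-18284317. Cleavage of this transcript by the Microprocessor is known to limit DGCR8. miR-1306-3p had 2, 3, 5 and 3 reads in ALAS12-KO replicates 1 to 4, against 2 reads in each WT library. miR-1306-5p had 5 reads over all ALAS12-KO libraries and 1 over all WT libraries. As shares of miRNA reads the genotypes overlapped for each arm. The 3p arm had 0.152 to 0.297 CPM in ALAS12-KO libraries and 0.0911 to 0.259 CPM in WT libraries. The 5p arm had 0 to 0.176 CPM and 0 to 0.130 CPM. Both were below the filter, so the counts are given with no test.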

How the data were processed

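Small RNA libraries of mouse hepatocytes, isolated by collagenase perfusion per the labels' protocols, were analysed as 7 tables of raw read counts per mature miRNA that the authors deposited, 1 per library. The submitters' processing notes name the tools cutadapt and limma and the builds mm10 and hg38, without roles. Which aligner, which counter and which miRNA annotation were used is not given in the sources used here. Entries for reads given to no miRNA, 50.9% to 73.7% of counted reads for those outside any miRNA and 4.54% to 8.00% for those not aligned, were left out. Whether counting used strand is not given, and how reads that fit several miRNAs were handled is not given either. Control RNAs added per the labels were not analysed here, so levels are relative to other miRNAs.

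ALAS12-KO was set against WT with edgeR 4.0.16 in R 4.3.3 (robust quasi-likelihood test, TMM, filterByExpr with a minimum count of 10) over the 450 miRNAs that passed, and p-values were adjusted by Benjamini-Hochberg and called under 0.05. Arm ratios were tested with limma 3.58.1, with 0.5 added to each arm. DESeq2 1.42.0 and limma-voom were alternatives. The edgeR and limma scripts were tested on simulated data. Exact binomial intervals came from scipy 1.17.1. No pair of libraries within a genotype was close enough to be 1 library deposited in duplicate, since chi-square divided by its degrees of freedom was 97.4 or more. The members, the lists and the alternatives were chosen with earlier results of these data known. Named were all members, other noncanonical miRNAs, miR-1306, and the 5 miRNAs nearest in pattern to each member whose own mean was at least 10 CPM. Sequences are RefSeq on GRCm38.p6, in which 9 of the 11 members matched.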

Additional observations from a re-analysis of the deposited data

Results flagged for a closer look

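Among 13 measures of the 4 ALAS12-KO libraries, 1 had a library that stood far off, which happens by chance in about 1 of 20 groups. For miR-664-5p, ALAS12-KO replicate 2 was the highest, and its gap to the next library was 0.832 of the group's range, past the limit of Dixon's test for 4 values. Without this library the log2 fold change of miR-664-5p was −0.25, against 0.10 with it. ALAS12-KO replicate 2 was also the highest for the other arm, miR-664-3p, where the gap was 0.645 of the range.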

How the results depend on the processing

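miR-320-3p and miR-484 kept a positive log2 fold change and stayed short of the threshold in all 17 alternatives. miR-320-3p ran from 0.41 to 0.66 (adjusted p 0.102 to 0.525), with 0.42 to 0.66 when 1 library was left out. miR-484 ran from 0.07 to 0.61 (adjusted p 0.382 to 0.903). The value at 0.07 came without ALAS12-KO replicate 3, and 0.29 came without replicate 4. The count of called members was 0 throughout. The number of all miRNAs called, 0, was 2 with library totals, 13 with no filter, 21 with DESeq2 and 0 to 1 when 1 library was left out. The summed share of the members had a log2 ratio of ALAS12-KO to WT of 0.38, and 0.12 to 0.54 with 1 library left out, the lowest without ALAS12-KO replicate 3. With the replicate block, miR-320-3p had 0.52 and miR-484 0.15. The labels do not state whether the shared numbers pair the libraries. Same-numbered libraries deviated from their group means with correlations of −0.03, −0.47 and 0.01. Libraries with different numbers ran from −0.36 to 0.53. With so few libraries per group, these correlations cannot settle whether the numbers pair them.

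miR-1982-3p changed sign to −0.0098 with DESeq2 size factors, −0.16 with library totals, −0.063 with upper-quartile factors, −0.16 without miR-122-5p, −0.033 with no filter, −0.027 with DESeq2, −0.25 with limma-voom and −0.52 with the block, and ran from −0.45 to 0.25 when 1 library was left out. miR-1983 changed to −0.13, −0.039 and −0.14 with library totals, upper-quartile factors and totals without miR-122-5p (−0.17 to 0.19 with 1 library left out). miR-664-5p changed to −0.10 with library totals and −0.091 without miR-122-5p (−0.25 to 0.34). The cause was not tested. For arm balance, 5 added to each arm, the block and leaving out a library gave no value, as no member passed the filter. The looser filter let in miR-320, but its 5p arm had 2 reads in all, so the ratio was set by the 0.5 added to each arm and gives no information. Depth limits the mirtrons among the chosen hairpins: at 1 to 11 reads per arm, differences in miR-877 could not be resolved.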

Other observations

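Hairpins set at intron borders were looked at after the values of the members were seen. With the members left out, 17 other counted hairpins fill an intron from end to end. Their 34 mature miRNAs held 13.7, 12.9, 12.9 and 10.6 CPM in ALAS12-KO replicates 1 to 4, against 11.5, 11.7 and 12.3 CPM in WT replicates 1 to 3, so the groups overlapped. miR-1981-5p alone gave 54.3% of these reads, and 15 of the 34 had no read in any library. Without miR-1981 the rest held 1.81 ± 0.269 CPM in ALAS12-KO (SD, n = 4) and 1.87 ± 0.410 CPM in WT (SD, n = 3).

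A further 190 counted hairpins have 1 end at an intron end. Their reads were spread over many miRNAs, the largest being miR-6978-3p with 10.8%. Of these miRNAs 10 passed the filter, and all 10 had a positive log2 fold change with TMM scaling (median 0.23). Over all tested miRNAs 56% were positive and the median was 0.06. Of the 10, 0 passed the threshold, and the groups did not overlap for 2, miR-6972-3p and miR-6946-3p, beside 20.2% of all tested miRNAs. Rare miRNAs can pass the filter through the genotype where they are higher. miR-6946-3p, at 0.758 ± 0.242 CPM in ALAS12-KO and 0.456 ± 0.0067 CPM in WT (SD), passed only through ALAS12-KO libraries. The count of positive signs and that of groups not overlapping are thus partly set by the filter. Signs with library totals, where the median over all tested miRNAs was −0.12, are not given. Together the mature miRNAs of the 190 hairpins held 27.6, 40.2, 31.7 and 30.4 CPM in ALAS12-KO, against 29.8, 21.3 and 40.7 CPM in WT. The highest libraries of this sum, WT replicate 3 and ALAS12-KO replicate 2, were also those with the largest share of reads outside any miRNA. That share was 57.4%, 72.2%, 59.2% and 55.1% in ALAS12-KO replicates 1 to 4, and 60.6%, 50.9% and 73.7% in WT replicates 1 to 3. The library with the lowest sum, WT replicate 2, had the smallest share. The part of these other reads in the sum was not tested. The highest levels of miR-320-3p and miR-484 were in ALAS12-KO replicates 3 and 4, and the part of these other reads in them was not tested either.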
